A study of Rattus norvegicus with 20 samples.

Results

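Expression of 8 genes that mark Kupffer cells or serve scavenging by macrophages, Cd5l, Vsig4, Marco, Clec4f, Msr1, Cd68, Csf1r and Aif1, was examined in the liver of male Zucker diabetic fatty (ZDF) rats. They were the genes whose symbol in the platform annotation equals a name on this list, taken from 14557 genes with a single symbol. The list was chosen with earlier results of these data known, so counts of its genes beside all genes tested are a description. Each was read by 1 probe set, lay above the middle of its array in 20 of 20 arrays and was among the 9481 genes tested. Affymetrix Rat Gene arrays were run on total RNA from snap-frozen liver, 1 array per rat, with 5 lean control rats fed chow, 5 obese rats given a stock diet for 6 weeks, 5 rosiglitazone rats and 5 resveratrol rats. All were ZDF males kept singly with free access to food on a 12 h light and 12 h dark cycle. In this strain, a defect of the leptin receptor leads to obesity and diabetes, while lean rats stay free of both. Rosiglitazone, an insulin sensitiser, is an agonist of PPARgamma, and resveratrol is a polyphenol of grapes and other plants. The labels give no dose or duration of either agent, no age and no body type for the treated rats, and the lean and obese groups differ in diet as well as in body type, so diet and body type cannot be told apart. Values are log2 expression after robust multi-array averaging, and an adjusted p under 0.05 in limma, corrected over all genes tested, was used as the threshold for a call.

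Kupffer cells are the macrophages that reside in the sinusoids of the liver. They take up bacteria, complement-coated particles, modified lipoproteins and dead cells from portal blood through scavenger receptors and lectins, and their survival depends on signals through the receptor Csf1r. Their identity is set by transcription factors that include PU.1 (gene Spi1), liver X receptor alpha (Nr1h3) and MAF proteins. Since whole liver was measured, fewer Kupffer cells and less RNA per Kupffer cell cannot be told apart in any value below.

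Of the arrays, lean control rat 3 stood apart: over the genes tested its mean Pearson correlation was 0.978 with the obese arrays and 0.969 with the other lean arrays, while each of the other lean rats was closer to its own group (0.968 to 0.975) than to the obese group. Array medians ran from 2.36 to 2.53. Markers of hepatocytes were high in each group, with a mean log2 level of 9 genes between 10.4 and 10.71 in all rats. Of 11 lymphocyte genes on the array, 10 lay below the filter on low values.

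The RefSeq promoter table (rat assembly GRCr8) was searched over the 250 bases before the start that it gives for each gene. Of the 8 genes, 6 were matched in it, and Msr1 and Aif1 were not. The letters GAGGAA, a PU.1-type core, were found on either strand in 4 of these 6 windows (Cd5l, Marco, Cd68 and Csf1r), against 23.3% of all 33469 promoters of the same length. In Cd5l the match began 129 bases before the start, in Marco 104, in Cd68 27, and Csf1r held matches at 229 and 95. The nuclear receptor half-site AGGTCA was found in 1 window, that of Clec4f (14.1% of all promoters), the direct repeat AGGTCANAGGTCA, which contains that half-site, in 0 of 6 (0.0508%), and the MAF half-site TGCTGA in 1, that of Cd5l (15.1%). The windows of Cd5l and Cd68, a secreted and a lysosomal product that both move with rosiglitazone below, are printed 5′ to 3′ with the GAGGAA match in capitals; both matches lie on the opposite strand and read TTCCTC. Clec4f is printed for a stretch of 54 bases that is followed by an exact second copy of itself, with both copies in capitals; the copies began 151 and 97 bases before the start, and 0.245% of all promoters held an exact repeat as long. The starts that the table gives for Marco and Csf1r lie inside the annotated genes. Their windows, whose matches are counted above, lie wholly (Marco) or mostly (Csf1r) within the genes and are not printed.
Cd5l chr2:175088665-175088914, forward strand: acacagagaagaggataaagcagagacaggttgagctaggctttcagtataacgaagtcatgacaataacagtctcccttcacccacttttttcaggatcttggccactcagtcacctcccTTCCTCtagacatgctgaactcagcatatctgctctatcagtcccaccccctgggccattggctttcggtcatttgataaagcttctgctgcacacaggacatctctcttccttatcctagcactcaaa
Cd68 chr10:54882442-54882691, reverse strand: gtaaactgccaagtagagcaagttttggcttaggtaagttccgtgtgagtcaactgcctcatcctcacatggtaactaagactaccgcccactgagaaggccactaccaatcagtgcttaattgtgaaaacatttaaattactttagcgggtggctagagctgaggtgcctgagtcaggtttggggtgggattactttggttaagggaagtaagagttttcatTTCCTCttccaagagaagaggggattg
Clec4f chr4:117696408-117696657, reverse strand: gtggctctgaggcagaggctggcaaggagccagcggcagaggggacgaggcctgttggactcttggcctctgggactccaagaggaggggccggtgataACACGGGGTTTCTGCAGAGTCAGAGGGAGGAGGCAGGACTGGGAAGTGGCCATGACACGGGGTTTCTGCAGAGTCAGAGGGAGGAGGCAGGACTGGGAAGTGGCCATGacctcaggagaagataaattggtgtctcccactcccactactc

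Among the genes of Kupffer cell identity, Cd5l, a secreted scavenger receptor cysteine-rich protein of tissue macrophages, was highest with rosiglitazone. The 5 rosiglitazone livers measured 6.22, 5.93, 6.15, 5.76 and 6.42, and the 5 obese livers 3.87, 4.93, 4.64, 4.85 and 4.47. Lean livers measured 5.28, 5.59, 5.62, 5.32 and 4.92, and resveratrol livers 4.94, 4.66, 4.76, 5.04 and 4.82. The lowest rosiglitazone liver lay above every liver of the other groups, and obese rat 1 was the lowest of all 20. The rosiglitazone livers were 2.92-fold above the obese livers (95% confidence interval 2.27 to 3.77; log2 difference 1.55, SE 0.18, limma adjusted p = 4.77e-05), which ranked 3 among the 9481 genes by p. The obese mean was below the lean mean (log2 difference −0.79, SE 0.18, adjusted p = 0.0244), with ranges that met in lean rat 5. The order of the means was rosiglitazone, lean, resveratrol, obese; lean and resveratrol (adjusted p = 0.105) and resveratrol and obese (adjusted p = 0.925) did not differ past the threshold.

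Vsig4, a complement receptor through which Kupffer cells bind C3b-coated particles, measured 6.60, 6.12, 6.33, 6.63 and 6.65 with rosiglitazone against 5.27, 5.17, 5.07, 5.10 and 5.40 in obese livers. It was 6.13, 6.20, 6.23, 5.86 and 4.97 in lean livers and 5.58, 5.48, 5.14, 5.60 and 5.72 with resveratrol. Rosiglitazone and obese livers did not overlap, whereas lean rat 5 lay below every obese rat and the other 4 lean rats lay above them. The difference between rosiglitazone and obese livers was 1.27 (SE 0.19, adjusted p = 0.000849), or 2.41-fold. Obese livers were 0.68 below lean livers on the log2 scale without passing the threshold (95% interval −1.06 to −0.29, adjusted p = 0.0634), and without lean rat 5 the difference was −0.90 with an adjusted p of 0.00594. No neighbours in the order rosiglitazone, lean, resveratrol, obese differed past the threshold (adjusted p = 0.10, 0.263 and 0.925).

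Clec4f, the galactose-binding lectin first described as the rat Kupffer cell receptor, measured 6.33, 6.49, 6.02, 6.61 and 6.75 with rosiglitazone and 5.44, 6.01, 5.63, 5.64 and 5.93 in obese livers. The values were 6.00, 6.58, 6.55, 6.32 and 5.98 in lean and 5.43, 5.66, 5.76, 6.00 and 5.67 in resveratrol livers. Rosiglitazone and obese ranges were separated by 1 pair of neighbouring rats at 6.02 and 6.01, and lean and rosiglitazone livers covered much the same range. The rosiglitazone mean exceeded the obese mean by 0.71 (SE 0.16, adjusted p = 0.0238), a call that was lost when rosiglitazone rat 4 or 5 or obese rat 1, 3 or 4 was left out (adjusted p up to 0.0722). Lean livers lay between, 0.16 below rosiglitazone (adjusted p = 0.71) and 0.56 above obese livers (adjusted p = 0.069), and the obese and resveratrol means (5.73 ± 0.24 and 5.70 ± 0.21, SD, n = 5) were 0.03 apart.

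The class A scavenger receptor Marco, which binds bacteria and modified lipoproteins, had the widest pooled spread of the 8 genes. Rosiglitazone livers measured 7.43, 6.39, 6.61, 6.85 and 7.33 and obese livers 4.80, 5.99, 4.88, 4.73 and 5.91. Lean livers measured 5.27, 5.66, 6.79, 4.73 and 5.10 and resveratrol livers 5.87, 5.91, 5.70, 5.29 and 5.56. Obese rats 2 and 5 lay well above the other 3, and lean rat 3 lay within the rosiglitazone range. The rosiglitazone livers were 3.16-fold above the obese livers (95% interval 2.0 to 5.0; log2 difference 1.66, SE 0.32, adjusted p = 0.00772) and also passed against lean livers (1.41, adjusted p = 0.0167; 1.73 without lean rat 3). That second call was lost without lean rat 4 or 5 or rosiglitazone rat 1 (adjusted p up to 0.0597). Obese and lean livers differed by −0.25 (95% interval −0.91 to 0.41, adjusted p = 0.749), and without lean rat 3 by 0.07. In the order rosiglitazone, resveratrol, lean, obese, no neighbours differed past the threshold (adjusted p = 0.066, 0.829 and 0.749).

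Msr1, the macrophage scavenger receptor for modified low-density lipoprotein, had the smallest rosiglitazone difference of the 8 genes. It measured 5.73, 5.70, 5.96, 5.82 and 6.08 with rosiglitazone and 5.70, 5.26, 5.05, 5.67 and 5.64 in obese livers. Lean livers measured 5.89, 5.94, 5.84, 6.06 and 5.59, and resveratrol livers 5.32, 5.39, 5.13, 5.61 and 5.39. The highest obese and the lowest rosiglitazone liver were level at 5.70 after rounding. The rosiglitazone minus obese difference was 0.40 (95% interval 0.12 to 0.67, adjusted p = 0.177) and did not pass the threshold, and lean and rosiglitazone means were level at 5.86 (difference −0.01, 95% interval −0.28 to 0.27). Against lean livers, Msr1 was lower in resveratrol livers by 0.50 (SE 0.13, adjusted p = 0.0376).

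Cd68, a lysosomal glycoprotein of macrophages, measured 5.50, 5.27, 5.59, 5.68 and 5.78 with rosiglitazone and 4.56, 4.63, 4.85, 4.55 and 4.82 in obese livers. It was 4.95, 5.71, 5.24, 5.12 and 4.85 in lean and 4.83, 4.77, 4.66, 4.80 and 5.01 in resveratrol livers. Every rosiglitazone liver lay above every obese and resveratrol liver, and lean rat 2 was the only lean rat above the rosiglitazone median of 5.59. The rosiglitazone minus obese difference was 0.88 (SE 0.14, adjusted p = 0.00132), or 1.84-fold, while obese minus lean was −0.49 (adjusted p = 0.0672). Csf1r, the receptor for CSF1 and interleukin 34 that macrophages need to survive, measured 6.02, 5.73, 5.71, 6.14 and 6.20 with rosiglitazone and 5.33, 5.19, 4.74, 5.01 and 5.23 in obese livers. It was 5.54, 5.65, 5.84, 5.48 and 4.92 in lean and 5.01, 5.41, 5.00, 5.27 and 5.55 in resveratrol livers. Lean rat 5 lay below the other lean rats and inside the obese range. The Csf1r difference between rosiglitazone and obese livers was 0.86 (SE 0.16, adjusted p = 0.00694), or 1.81-fold, and between obese and lean livers −0.39 (adjusted p = 0.211).

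Aif1, a calcium-binding protein of the macrophage cytoskeleton also known as Iba1, measured 4.35, 4.29, 4.43, 4.43 and 4.15 with rosiglitazone and 3.30, 3.97, 3.56, 3.85 and 3.66 in obese livers. Lean livers measured 4.08, 4.49, 3.72, 4.57 and 4.10, and resveratrol livers 3.30, 3.52, 2.84, 3.67 and 3.48. The rosiglitazone livers formed the tightest group (SD 0.12), and every resveratrol liver lay below every lean liver. Rosiglitazone exceeded obese livers by 0.66 (SE 0.17, adjusted p = 0.0450), the call nearest the threshold, which was kept in 6 of 20 fits that each left out 1 array (adjusted p 0.0274 to 0.117) and lost without a filter on low values or with arrays centred on their medians (adjusted p up to 0.0647). Aif1 fell by 0.83 in resveratrol against lean livers (SE 0.17, adjusted p = 0.0105), and it was the only one of the 8 whose resveratrol and lean ranges did not overlap.

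**Figure D1:**
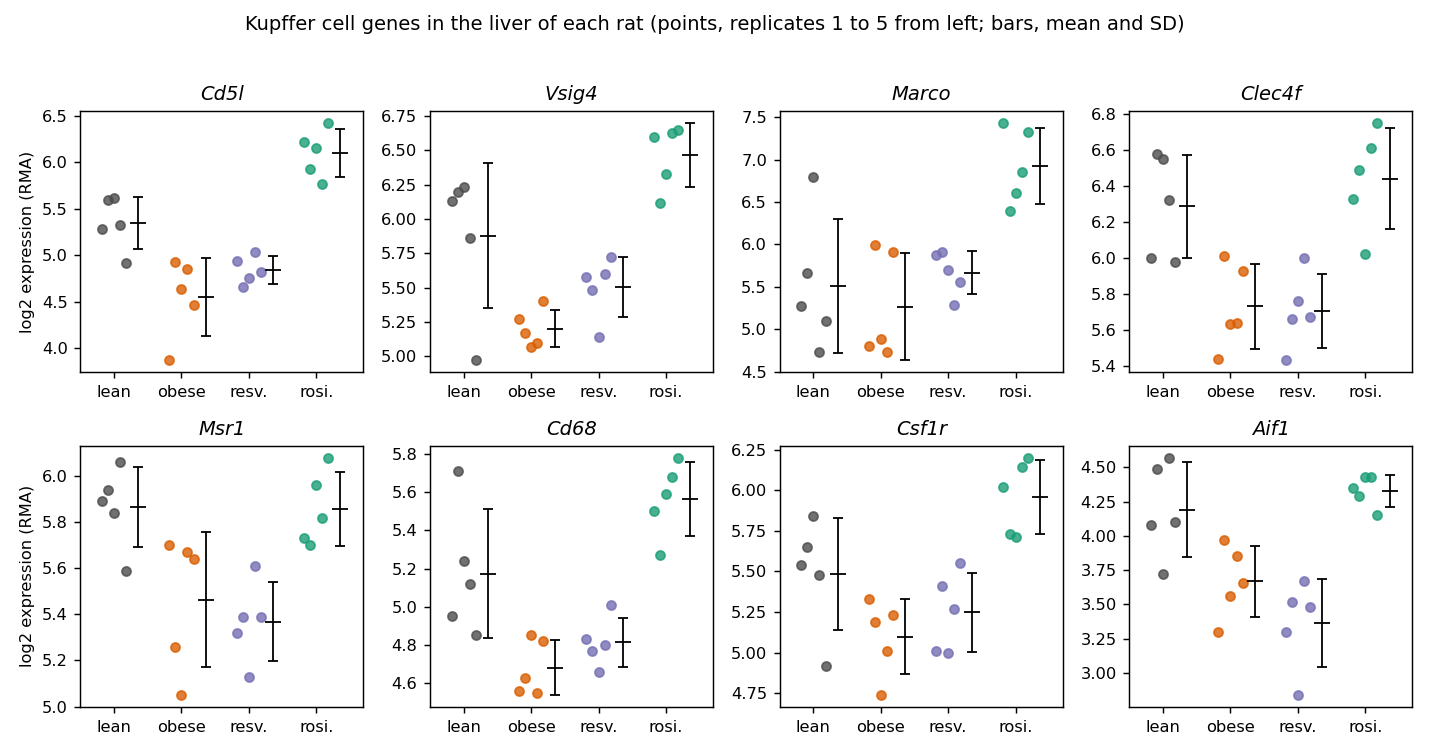
Log2 expression (vertical axis of each panel, with its own range) of the 8 genes in each rat, by group (horizontal axis; resv., resveratrol; rosi., rosiglitazone). Points are rats and bars give the mean and SD of 5; the rosiglitazone points lie above all obese points in each panel, most narrowly for Msr1 (5.70 in both after rounding) and Clec4f (6.02 against 6.01).

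Rosiglitazone livers were then set against obese livers. A stock diet for 6 weeks is recorded only for the obese rats, and the labels give no body type for the treated rats. Differences between treated and obese livers therefore cannot be put down to an agent alone. Of the 8 genes, 7 were higher with rosiglitazone, where 1.04% of all genes tested were called higher, and the remaining gene, Msr1, was higher by 0.40 without passing. The rat-by-rat ranges did not overlap for 8 of 8 genes, against 2.23% of all genes tested with rosiglitazone above obese. The median difference of the 8 was 0.87, beside 0 for all genes tested. As the 8 genes were chosen with earlier results of these data known, these shares describe them and are no test of the set. The differences were not even: the secreted and complement-binding products and Marco stood at 1.27 to 1.66, and the remaining 5 genes at 0.40 to 0.88. Cd5l, Vsig4, Marco, Cd68 and Csf1r were called in each of the 20 fits that left out 1 array. The count of called genes was 5 without obese rat 1, 3 or 4 or rosiglitazone rat 4 or 5.

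Rosiglitazone livers were compared with resveratrol livers to set the agents against each other. Here 6 of 8 genes were higher with rosiglitazone (0.517% of all genes called higher), and again 8 of 8 ranges did not overlap (1.67% of all genes with rosiglitazone above). Among the genes that passed, the largest differences were those of Cd5l (1.25, adjusted p = 0.000717), Aif1 (0.97, adjusted p = 0.00488) and Vsig4 (0.96, adjusted p = 0.0126). Cd68 (0.75, adjusted p = 0.00716), Clec4f (0.74, adjusted p = 0.0250) and Csf1r (0.71, adjusted p = 0.0367) also passed, whereas Marco (1.26, adjusted p = 0.0660) and Msr1 (0.49, adjusted p = 0.0939) did not. Cd5l, Vsig4, Cd68 and Aif1 kept their calls in each of the 20 fits that left out 1 array, and Clec4f and Csf1r in 13 each, while Marco passed without lean rat 3 (adjusted p = 0.0161). Obese and resveratrol rats are separate animals, but the comparison shares the rosiglitazone arrays with the one before it.

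Between resveratrol and obese livers, 0 of 8 genes passed in limma (0.0105% of all genes tested were called, in either direction), and 0 of 8 had an unadjusted p under 0.05, beside 505 of the 9481 genes. The differences ran from −0.30 for Aif1 to 0.40 for Marco. The 95% intervals bound them at 0.66 for Cd5l (−0.07 to 0.66), 0.69 for Vsig4 (−0.09 to 0.69), 0.42 for Cd68 (−0.16 to 0.42) and 0.48 for Csf1r (−0.19 to 0.48). For Clec4f (−0.35 to 0.30), Msr1 (−0.37 to 0.19) and Aif1 (−0.65 to 0.04) the upper bounds were lower still, and Marco was bounded less closely (−0.26 to 1.06). For each of the 8 genes the point estimate of rosiglitazone minus obese lay above the upper bound for resveratrol. This is no test between the agents, since it leaves out the error of that estimate and both comparisons share the obese arrays. In the direct comparison of the agents above, Marco and Msr1 did not pass.

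Obese livers were set against lean livers to find what differs in the diabetic model. All 8 genes were lower in obese livers, by 0.25 to 0.79 with a median of −0.51, but only Cd5l passed (1 of 8, with 1.13% of all genes called lower) and no gene had ranges free of overlap (0 of 8, with 2.0% of all genes). An unadjusted p under 0.05 was reached by 7 of 8, Marco being the exception, and by 1646 of the 9481 genes. The lean group held the most extreme rats: lean rat 5 lay below its group mean in all 8 genes and lean rat 2 above it in all 8. Without lean rat 5, 3 genes passed (Cd5l, Vsig4 at −0.90 and Cd68 at −0.57, adjusted p = 0.0466), and without lean rat 3, 2 passed (Cd5l and Aif1 at −0.64, adjusted p = 0.0246). Leaving out lean rat 1, 2 or 4 or obese rat 1 or 5 left 0 of the 8 genes past the threshold, with an adjusted p for Cd5l of up to 0.0593, and it was 0.0827 with only the lean and obese arrays in the fit. Of all genes tested, 172 were called with all arrays in the fit. More were called without lean rat 3, and fewer in each of the fits that left 0 of the 8. Without lean rat 5 fewer of all genes were called, although more of the 8 passed.

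Against lean livers, rosiglitazone livers were higher in 2 of 8 genes, Cd5l (0.76, SE 0.18, adjusted p = 0.0216) and Marco, where 1.01% of all genes were called higher. Vsig4 (0.59, adjusted p = 0.10), Csf1r (0.47, adjusted p = 0.133) and Cd68 (0.39, adjusted p = 0.146) were above the lean mean without passing, and Clec4f, Aif1 and Msr1 lay within 0.16 of it. Cd5l lost its call without lean rat 1, 4 or 5 or rosiglitazone rat 1, 3 or 5 (adjusted p up to 0.0736), and without lean rat 2 Cd68 passed as well (adjusted p = 0.023). Resveratrol livers were lower than lean livers in 3 of 8 genes, Aif1, Clec4f (−0.58, adjusted p = 0.0373) and Msr1, beside 2.33% of all genes called lower, and 1 of 3, Aif1, kept its call in each of the 20 fits that left out 1 array. It alone passed without lean rat 2 or 4 or resveratrol rat 1, 2, 3 or 5, and Vsig4 passed too without lean rat 5 (−0.60, adjusted p = 0.0281).

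**Figure D2:**
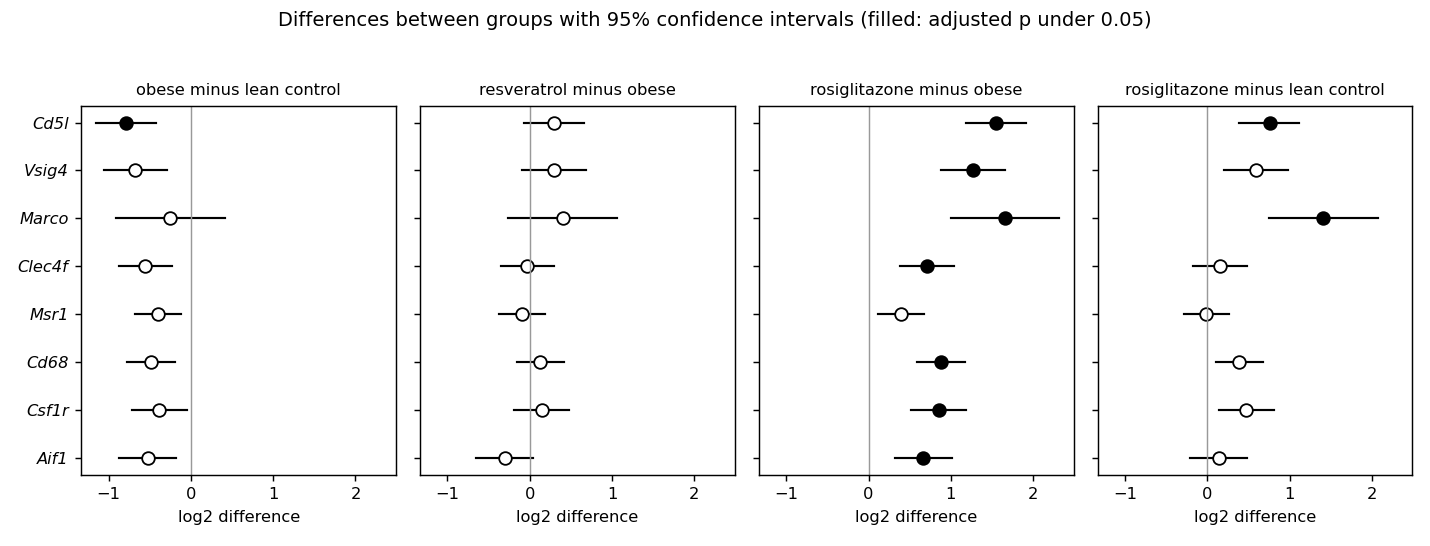
Log2 difference between group means (horizontal axis) of the 8 genes (vertical axis) in 4 comparisons, with 95% confidence intervals. Filled points passed an adjusted p of 0.05; 1 point is filled for obese minus lean control, 0 for resveratrol minus obese, 7 for rosiglitazone minus obese and 2 for rosiglitazone minus lean control.

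Rat-to-rat variation inside the groups was then examined, after each gene had been set to its group mean. Over 28 pairs of genes and 20 rats, 26 pairs correlated above 0, with a median Pearson r of 0.386 (jackknife SE over rats 0.127) and a median Spearman rho of 0.372. For single genes, the median r with the whole set of genes tested was 0.023 to 0.068. That background was wide. The share of all genes tested at or above a gene's median r with the other members ran from 4.93% for Clec4f to 30.1% for Msr1, with 26.5% for Aif1. The highest pair was Vsig4 with Csf1r (r = 0.839, permutation within groups p = 8e-05, adjusted over 28 pairs 0.00224; rho = 0.783, permutation p = 0.00013, adjusted 0.00364; r = 0.743 without the 2 rats farthest from the middle). It was the 1 pair of 28 that passed the correction. Next came Vsig4 with Cd68 (r = 0.633, permutation adjusted p = 0.223), Msr1 with Csf1r (r = 0.546, permutation adjusted p = 0.167) and Clec4f with Csf1r (r = 0.519, permutation adjusted p = 0.223). Aif1 and Msr1 followed the others least, with median r of 0.181 and 0.213, and Aif1 with Marco gave the lowest value (−0.267). All rats share 1 normalization, and the first principal component of the within-group variation of all genes tested held 15.9% of it; with that component removed the median r of the 28 pairs was 0.297.

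**Figure D3:**
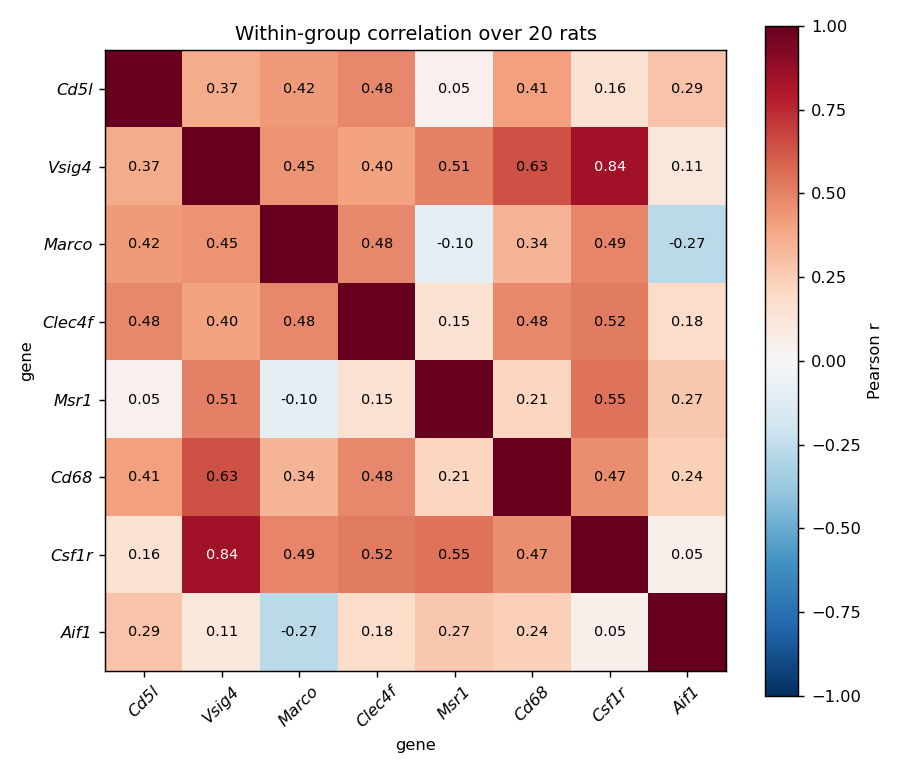
Pearson correlation (colour and number) between each pair of the 8 genes (both axes) over 20 rats after group means were removed. Vsig4 and Csf1r share the highest value (0.84), and the only values below 0 are those of Marco with Aif1 and with Msr1.

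Some rats deviated in most of the 8 genes at once. Lean rat 5 had the lowest mean deviation over the 8 genes (−1.56 in units of each gene's within-group SD, 0 of 8 genes above the group mean), and lean rat 2 the highest (1.06, 8 of 8). Resveratrol rat 3 (−0.80), rosiglitazone rat 2 (−0.75) and rosiglitazone rat 5 (0.80) followed. Without lean rat 5 the median r of the 28 pairs was 0.282, and without the whole lean group 0.268, while without the obese group it was 0.501. The largest upward deviation was that of Marco in lean rat 3 (1.28 above the lean mean) and the largest downward one that of Vsig4 in lean rat 5 (−0.91). Marco lay at −0.78 in lean rat 4, and in obese rats 2 and 5 it lay 0.72 and 0.65 above the obese mean while Msr1 lay at −0.20 and 0.18.

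**Figure D4:**
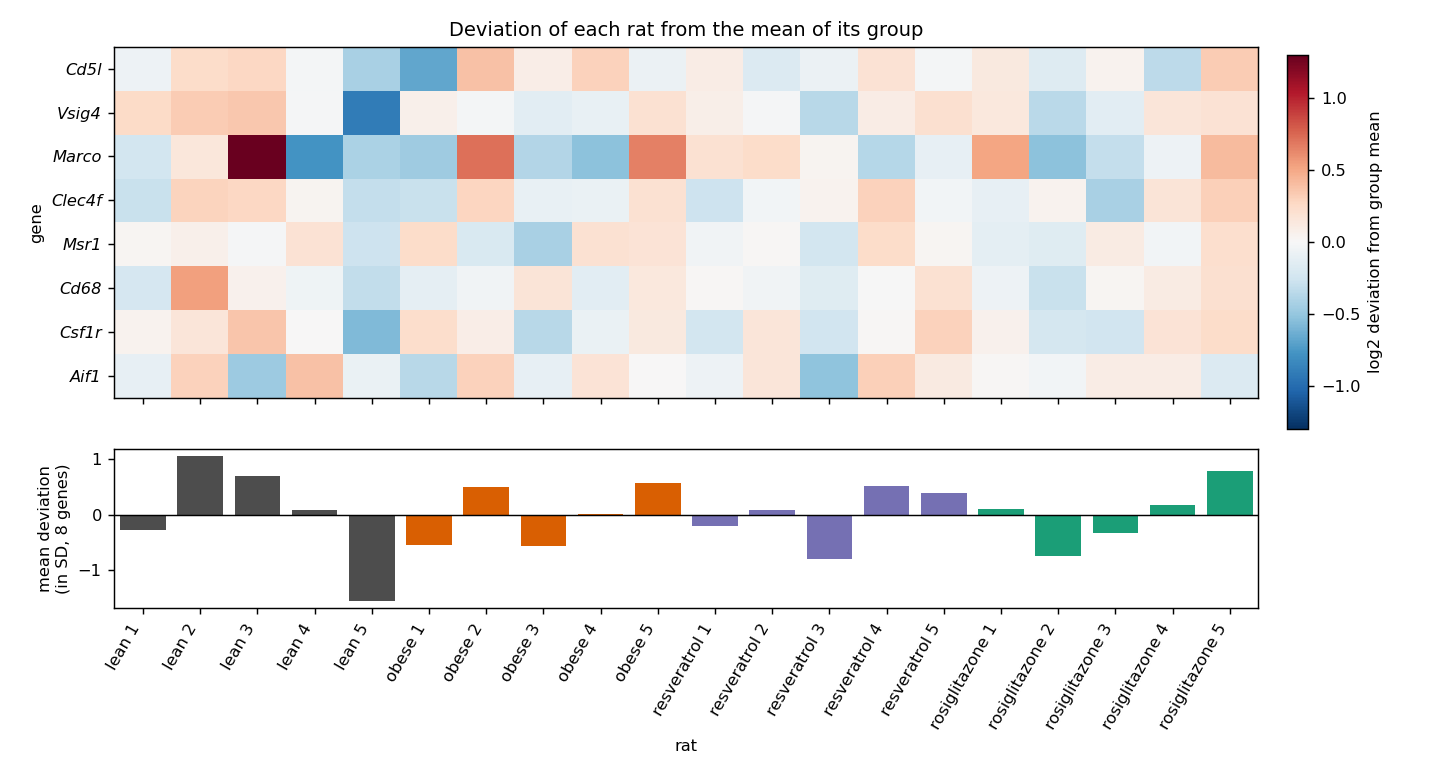
Upper panel, deviation of each rat (horizontal axis) from the mean of its group in log2 units (colour) for the 8 genes (vertical axis); lower panel, the mean deviation over the 8 genes in SD units. Lean rat 5 is at −1.56 and lean rat 2 at 1.06, and the dark red cell of lean rat 3 is Marco.

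The genes outside the list whose within-group pattern was most like the mean of the 8, over 20 rats, were Tor1b (r = 0.837), Fam204a (0.833), Lcat (0.830), Slc11a1 (0.821), Sectm1a (0.820), Usp14 (0.817), Sdcbp (0.816), Nol11 (0.811), Lypla2 (0.806), Poglut1 (0.805), Fcgr1a (0.803) and Ccdc112 (0.794). These values were picked as the highest of 9481 and are a description. Slc11a1, a divalent metal transporter of phagosomes, and Fcgr1a, the high-affinity Fc gamma receptor, are macrophage genes, and they differed between rosiglitazone and obese livers by 0.64 (adjusted p = 0.177) and 0.69 (adjusted p = 0.0608). Tor1b, Fam204a and Lcat differed by 0.11, −0.03 and −0.18 there. For single genes, the most alike gene outside the list was C1qb for Csf1r (r = 0.80), Fam204a for Vsig4 (0.892), Slc15a2 for Cd5l (0.793), Hspa4l for Marco (0.842), Mnat1 for Clec4f (0.819), Ykt6 for Msr1 (0.834), Nbn for Cd68 (0.810) and Nup88 for Aif1 (0.761). Among all genes tested, 0 followed Csf1r more closely than Vsig4 did, and 2 followed Vsig4 more closely than Csf1r did. The other members were each followed by many genes more closely than by any fellow member. These numbered 149 for Cd68, 311 for Clec4f, 334 for Cd5l, 379 for Marco, 380 for Msr1 and 1359 for Aif1.

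The wider Kupffer cell and macrophage gene lists were read in the same fit. They were written with earlier results of these data known, so their counts are a description. Of all genes tested, 1.04% were called higher with rosiglitazone than in obese livers, with a median difference of 0. Between obese and lean livers, 1.13% of all genes tested were called lower and 65 of the 9481 higher. Of 12 other Kupffer cell genes tested, 4 were higher with rosiglitazone than in obese livers (median 0.60 over the 12): Hmox1, the haem-degrading oxygenase (5.50 ± 0.09 against 4.22 ± 0.14, SD, n = 5; difference 1.27, adjusted p = 0.00221), Folr2, a folate receptor of resident macrophages (0.81, adjusted p = 0.00512), Fcna, the lectin ficolin A (0.73, adjusted p = 0.031), and Vcam1, an adhesion molecule that endothelium also carries (0.67, adjusted p = 0.0319). Of 19 phagocyte genes, 8 were higher (median 0.59), among them Cd4, which rat macrophages express (0.94, adjusted p = 0.000424), Fcer1g, the shared signalling chain of Fc receptors (0.70, adjusted p = 0.00234), and C1qa, a chain of the complement starter C1q that tissue macrophages make (0.60, adjusted p = 0.00364). C1qb, C1qc, Cyba, Lcp1 and Lgmn were the others, with differences of 0.60 to 0.66. Between obese and lean livers, 4 of the 19 phagocyte genes were lower, Cd4 (−0.68), C1qa (−0.56), Lcp1 (−0.55) and Fcer1g (−0.54), with adjusted p of 0.0133 to 0.0253, and of the 12 Kupffer cell genes 1 was lower, Vcam1 (−0.77, adjusted p = 0.0194), and 1 higher, Nr1h3 (0.53, adjusted p = 0.0384). Timd4, a phosphatidylserine receptor of resident Kupffer cells, lay below the filter, and Cd163 was not analysed here.

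Scavenging receptors outside the 8 genes did not pass: of 9 scavenger and lipoprotein receptors tested, 0 were called in limma between rosiglitazone and obese livers (median 0.28), and the smallest p values belonged to Scara5, a ferritin receptor (0.59, adjusted p = 0.147), the endocytic receptor Lrp1 (0.31, adjusted p = 0.245) and Cxcl16 (0.35, adjusted p = 0.286), with 4 of the 9 at an unadjusted p under 0.05. Over all genes tested, 1153 of 9481 had an unadjusted p under 0.05 in this comparison. Cd36, the fatty acid translocase, which hepatocytes express in obesity as well as macrophages, took another course: it was higher than in lean livers in the obese, rosiglitazone and resveratrol groups (1.56, 1.57 and 1.61, adjusted p = 0.0165, 0.00674 and 0.00791). Of 10 macrophage transcription factors, 1 was higher with rosiglitazone than in obese livers, Tfec (0.83, adjusted p = 0.031), while Spi1 (0.65, adjusted p = 0.131) and Maf (0.48, adjusted p = 0.117) did not pass. Between obese and lean livers, Nr1h3, which this list also holds, ran opposite to the 8 genes, and Zeb2 was lower (−0.49, adjusted p = 0.0244); hepatocytes express Nr1h3 as well. In the Csf1r axis, its ligand gene Csf1 (0.48, adjusted p = 0.388) and the related receptor Flt3 (0.57, adjusted p = 0.300) did not pass, and 0 of 4 genes were called in limma (2 of these, Csf1 and Flt3, had an unadjusted p under 0.05).

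Markers of other cells were set beside these values. With rosiglitazone against obese livers, 0 of 7 monocyte and neutrophil genes passed in limma (0 with an unadjusted p under 0.05, median 0.24), 0 of 8 sinusoidal endothelial genes (2 unadjusted, median 0.22), 0 of 7 stellate cell genes (2 unadjusted, median 0.05), 0 of 4 cholangiocyte genes (1 unadjusted, median 0.05) and 0 of 9 hepatocyte genes (1 unadjusted, median 0.04), and 1 of 6 dendritic cell genes passed, Cd74, the invariant chain of class II antigen presentation that macrophages also express (1.04, adjusted p = 0.0125). These unadjusted counts stand beside 1153 of all 9481 genes tested. By sign alone, 8 of 8 endothelial and 7 of 7 monocyte and neutrophil genes lay higher with rosiglitazone, as did the 8 Kupffer cell genes. Such counts were 5 of 6 for dendritic cell and 4 of 7 for stellate cell genes. They were 3 of 4 for cholangiocyte and 6 of 9 for hepatocyte genes. Between obese and lean livers, all 8 endothelial genes were lower (median −0.51, the same as that of the 8 Kupffer cell genes), and Lyve1 (−0.55, adjusted p = 0.0251) and Cdh5 (−0.51, adjusted p = 0.0379) passed. The summed linear level of the 8 Kupffer cell genes was 238 to 314 in obese, 268 to 313 in resveratrol, 284 to 494 in lean and 468 to 669 in rosiglitazone livers. Sums of the endothelial list were 256 to 324, 276 to 342, 376 to 441 and 257 to 404 in the same order, those of the monocyte and neutrophil list 64.9 to 84.4, 66.9 to 85.7, 64.8 to 93.3 and 73.0 to 111, and those of the hepatocyte list 14100 to 16200, 14700 to 15300, 15000 to 16800 and 14500 to 16200. The part of these cell types in the differences of the 8 genes was not tested.

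**Figure D5:**
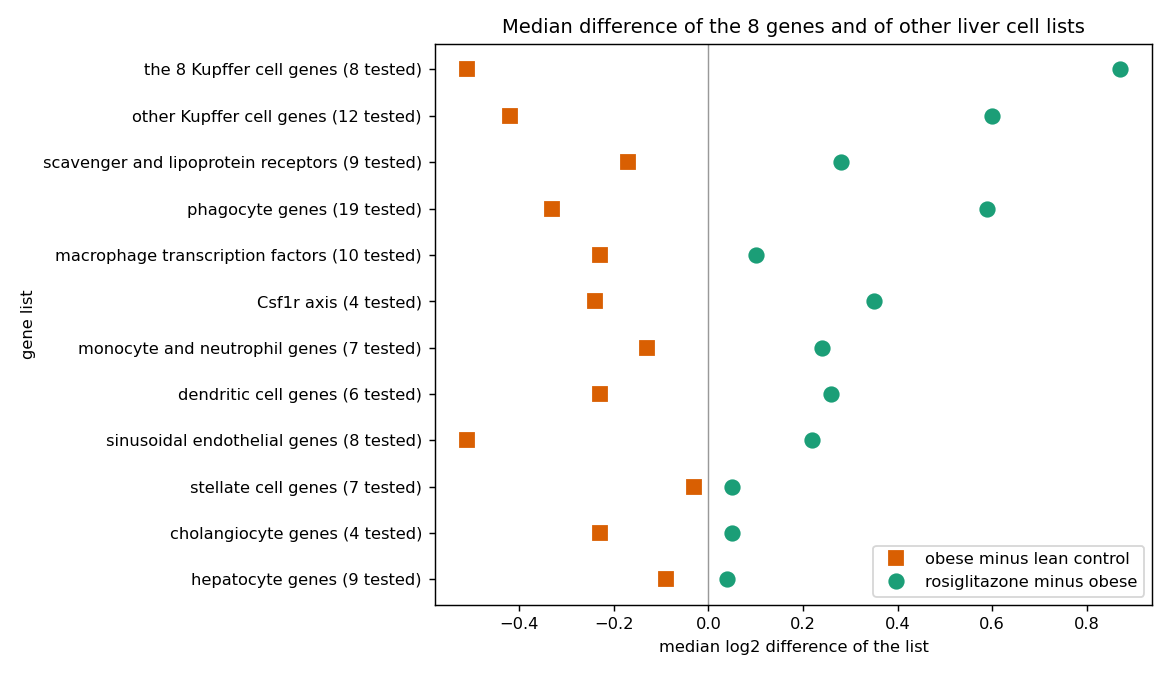
Median log2 difference (horizontal axis) of the 8 Kupffer cell genes and of lists for other liver cells and functions (vertical axis, with the number of genes tested), for obese minus lean control (squares) and rosiglitazone minus obese (circles). The 8 genes are at −0.51 and 0.87, and the hepatocyte list at −0.09 and 0.04.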

How the data were processed

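Total RNA (100 ng per rat) from liver was hybridised to Affymetrix Rat Gene arrays, 1 per rat, in 4 groups of 5 biological replicates named in the labels. The authors deposited log2 values of 36685 probe sets made by RMA, which corrects background, quantile normalizes arrays and summarises probes; no source used here gives the RMA version. RMA compresses changes of dim probe sets, and no detection call was used. Depth does not apply to arrays, and the number of rats limits the precision. Probe sets with 1 symbol (14824; 829 had several and 21032 were unnamed) named 14557 genes, the probe set of highest mean standing for a gene. Genes above the array's percentile 50 in at least 5 arrays (9481) were tested with limma 3.58.1 in R 4.3.3, all 20 arrays in 1 fit (16 residual and 5.40 prior degrees of freedom), two-sided, with Benjamini-Hochberg adjustment. The fit was tested on simulated data. Pair correlations used values with group means removed and 100000 permutations within groups. RefSeq (GRCr8) gave promoters and 14670 probe sets' gene identifiers. Named were all 8 genes, up to 3 genes per list by smallest p for rosiglitazone minus obese, the 12 genes most alike to the mean of the 8 and the most alike gene of each; other list genes named were chosen after their values were seen. The 8 genes and the lists were chosen with earlier results of these data known. Alternatives were no filter, percentile 75, repeated quantile normalization, median centring, only the compared groups, a mean-variance trend, array weights, a replicate block, the mean of probe sets, an adjusted p under 0.01, and each array left out. Plots were made in Python 3.11.15 with matplotlib 3.10.9.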

Additional observations from a re-analysis of the deposited data

How the results depend on the processing

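The count of the 8 genes called was 7 for rosiglitazone minus obese, and 5 to 7 under all alternatives (5 to 7 when each array was left out in turn). For obese minus lean control the count of 1 became 4 with the filter at percentile 75, 3 with a mean-variance trend, 4 with array weights, 0 with only the compared groups in the fit and 0 at an adjusted p under 0.01, and ran from 0 to 3 when each array was left out. The number of all genes called in that comparison, 172 in the main fit, moved as well. It was higher with the percentile 75 filter, the trend and array weights. With only the compared groups and at an adjusted p under 0.01 it was lower. Under each of these settings the count of the 8 and that of all genes moved in the same direction. Without lean rat 5 they moved in opposite directions, as described above. Whether the changes in the count of the 8 are particular to them was not tested. Rosiglitazone minus resveratrol gave 6, and 3 at an adjusted p under 0.01 (4 to 7 with arrays left out). Rosiglitazone minus lean control gave 2, with 1 when only the compared groups were fitted and 0 at an adjusted p under 0.01 (0 to 3 with arrays left out). Resveratrol minus lean control gave 3, with 1 without a filter, 1 with median centring, 1 with only the compared groups and 0 at an adjusted p under 0.01 (1 to 4 with arrays left out). Resveratrol minus obese gave 0 throughout. The cause of these moves was not tested, except that a stricter threshold can only lower a count. The sign turned only in differences near 0 that were never called: Msr1 for rosiglitazone minus lean control was −0.01, and 0.005 after repeated quantile normalization and 0.006 after median centring (−0.074 to 0.042 with arrays left out), and with arrays left out Marco ran from −0.44 to 0.073 for obese minus lean control and from −0.039 to 0.48 for resveratrol minus lean control, and Clec4f from −0.10 to 0.043 for resveratrol minus obese. The median correlation of the 28 pairs ran from 0.268 to 0.501 when a group was left out and from 0.282 to 0.413 when an array was. Rats share replicate numbers across groups. In 30 pairs of same-numbered rats the deviations from group means correlated from −0.246 to 0.253 (median −0.044, 5 above 0.1). Differently numbered rats were not set beside them, so whether the numbers pair the rats cannot be told from these values. With a replicate block the counts were 1, 7, 0, 5, 2 and 3 for obese minus lean, rosiglitazone minus obese, resveratrol minus obese, rosiglitazone minus resveratrol, rosiglitazone minus lean and resveratrol minus lean.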
